A study of Mus musculus with 47 samples.

Results

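Of 21522 regions of the genome at which RNA polymerase II (RNAPII) was called in at least 1 library of mouse liver or liver tumour, 970 had an RNAPII peak in none of the 4 tumours with Myc on and in all 4 control livers. These 970 lost regions are described here. They were found by merging the peaks of all 11 RNAPII lists wherever they overlapped by at least 1 bp, and "lost" means that no peak was called in those 4 tumours. The RNAPII values of tumours and control livers chose the regions and are given as a description only. The histone marks and Myc binding were not used for the choice. Whether RNAPII was present in tumours after Myc shutdown was not part of the rule either. Their RNAPII peaks did enter the merging, so they helped set where regions begin and end.

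RNAPII transcribes protein-coding genes, and its ChIP-seq peaks mark promoters with bound polymerase and the bodies of heavily transcribed genes. H3K4me3 is a histone mark of promoters, and H3K27ac marks active promoters and active enhancers. Myc is a transcription factor that binds promoters and enhancers of very many genes when it is made in excess, and it is known for driving growth and biosynthesis while differentiated functions of the tissue decline.

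All livers were from FVB mice. Tumours carried the transgene tet-Myc together with LAPtTA, a liver-specific transactivator that drove tet-Myc from before birth. In switched-off tumours, food with doxycycline had silenced tet-Myc for 16 h. In the other tumours tet-Myc was on. Control liver 1 carried tet-Myc without expression, control liver 2 carried LAPtTA, and control livers 3 and 4 were wild type. The treatment text names a wild-type and a mutant form of tet-Myc, and the labels do not tell which form a tumour carried. RNAPII, H3K4me3 and H3K27ac were each mapped in 3 switched-off tumours, 4 tumours with Myc on and 4 control livers. Myc was mapped in 3 switched-off tumours, 6 tumours with Myc on and 4 control livers. The labels do not state whether the libraries within a group are from different animals, and the p-values therefore reflect the spread among libraries, which may be technical. Library numbers are those of each antibody and need not mark the same animal across antibodies. The labels used here give no ages, and the labelled tissue was not checked against marker genes because no gene annotation of the build of the lists (mm9) was used. For the same reason regions are given by mm9 position and carry no gene names or sequences. In bulk tissue, fewer cells that hold a peak and a weaker signal in each cell cannot be told apart.

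The values are peak lists, 1 for each library, so the depth of sequencing is unknown and a region without a peak is not shown to be empty. The value of a region in a library is the percent of its length covered by the peaks of that library, called coverage below. RNAPII lists held between 11916 and 14834 peaks in switched-off tumours, between 12708 and 17868 in tumours with Myc on and between 15152 and 20931 in control livers. They covered between 69.9 and 146.5 Mb in switched-off tumours, between 40.9 and 119.8 Mb in tumours with Myc on and between 80.3 and 123.9 Mb in control livers. Myc lists differed most, with 98 to 331 peaks in switched-off tumours, 19269 to 55763 in tumours with Myc on and 1002 to 8499 in control livers.

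The lost regions ranged from 517 to 123889 bp in length, with a median of 5536 bp and the middle of the distribution between 2740 and 13819 bp. Together they spanned 10.4 Mb. The 7898 regions with an RNAPII peak in all 4 tumours with Myc on and all 4 control livers, called kept regions, had a median length of 10440 bp. RNAPII peaks covered on average 74.3% of a lost region in control liver 1, 57.0% in control liver 2, 57.3% in control liver 3 and 61.3% in control liver 4. Of the 970 lost regions, 284 were covered to at least 50% in every control liver, while 124 were covered to less than 10% in at least 1 of them. The choice thus held both regions filled with RNAPII in every control liver and regions with a short stretch in some. The regions shown next, just inside and just outside the rule, were picked by the largest control coverage. Their nearly full coverage in most control livers follows from that pick. At chr7:27620110-27629708, the lost region with the highest control coverage, RNAPII covered 0% in each tumour and 99.3%, 99.5%, 95.9% and 99.5% in the control livers. Just outside the rule were 296 regions with a peak in 1 tumour with Myc on and all 4 control livers, and 705 regions with a peak in no tumour with Myc on and 3 control livers. Median RNAPII coverage of the 705 was 84.4%, 46.5%, 5.02% and 21.5% in control livers 1 to 4, each region lacking a peak in 1 of them. At chr2:58605085-58650371, RNAPII covered 2.73% in tumour 2, 0% in the other 3 tumours and between 96.6% and 99.2% in the control livers. At chr6:142393814-142413753, RNAPII covered 0% in every tumour, between 96.6% and 98.7% in control livers 1 to 3 and 0% in control liver 4.

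Positions were spread over the chromosomes, and joining lost regions less than 50000 bp apart gave 779 loci, of which 646 held a single lost region. In all, 324 lost regions (33.4%) lay within that distance of another lost region. Among kept regions, which are far more numerous, 4920 (62.3%) lay within it of another kept region. The richest locus, chr8:95576750-95861995, held 10 lost regions over 285.2 kb and no kept region. RNAPII covered 0 kb of this locus in switched-off tumours 1 and 2 and 15.4 kb in switched-off tumour 3, 0 kb in each tumour with Myc on, and 178, 143, 146 and 174 kb in the control livers. H3K4me3 was present at 1, 2 and 5 of the 10 regions in the switched-off tumours, at none of them in any tumour with Myc on, and at 6 of them in every control liver. H3K27ac covered 30.5, 26.1 and 72.5 kb in the switched-off tumours, 21.9, 20.7, 17.2 and 10.6 kb in tumours with Myc on and 87.5, 83.9, 133 and 144 kb in control livers. For both marks, tumours with Myc on and control livers did not overlap. Myc peaks were found at 0 of the 10 regions in the switched-off tumours, at 3 to 7 in tumours with Myc on and at 0 to 4 in control livers.

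**Figure D1:**
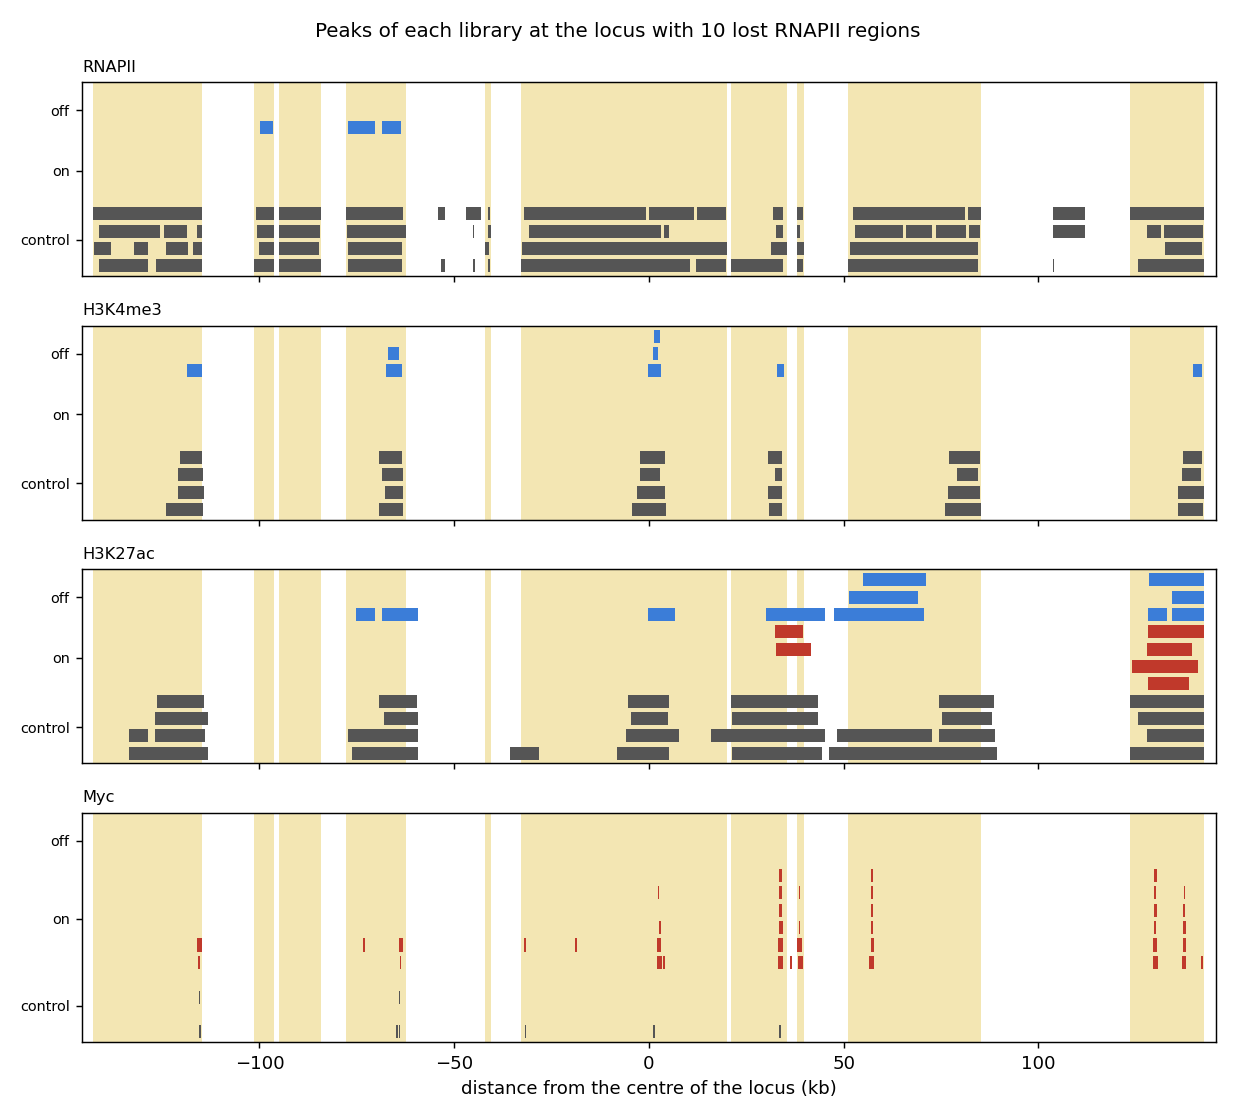
Peaks of every library at the locus with 10 lost RNAPII regions, drawn to scale against the distance from the centre of the locus in kb. Each row is 1 library (blue, tumours with Myc off for 16 h; red, tumours with Myc on; grey, control livers) and yellow bands are the lost regions. RNAPII and H3K4me3 have no bar in the 4 tumours with Myc on, and H3K27ac keeps bars at few of the regions there. The narrowest Myc peaks are too thin to be seen at this scale.

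Other loci differed from it in their marks. The next, chr3:118281046-118481082 with 6 lost regions, had RNAPII over 0 kb in each switched-off tumour and each tumour with Myc on, and over 111, 133, 58.8 and 67.8 kb in the control livers. H3K4me3 was not called in any control liver there, and H3K27ac covered at most 12 kb in any library. At chr15:3313701-3511878, with 5 lost regions, RNAPII covered 12.2, 121 and 12 kb in the switched-off tumours, 0 kb in each tumour with Myc on and between 153 and 173 kb in control livers. H3K27ac covered 15.0, 13.9 and 27.9 kb there in the switched-off tumours, 7, 6.76, 3.73 and 0 kb in tumours with Myc on, and between 58.1 and 82.0 kb in control livers. H3K4me3 was not called in any tumour with Myc on or control liver at that locus.

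The lost regions fell into 3 classes by the marks they carried in control liver. H3K4me3 marked 516 of them (53.2%), of which 451 also had H3K27ac. H3K27ac without H3K4me3 marked 349 (36.0%), and 105 (10.8%) had neither mark. Here a mark counted when a merged region of it was present in at least 2 control livers. Among kept regions the same classes held 97.6%, 1.56% and 0.836%. The median length was 4758 bp for lost regions with H3K4me3, 5068 bp for those with H3K27ac only and 12930 bp for those with neither mark. Requiring that marks cover at least 50% of a region left 334 regions in the H3K4me3 class and put 167 in the class with neither mark.

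**Figure D2:**
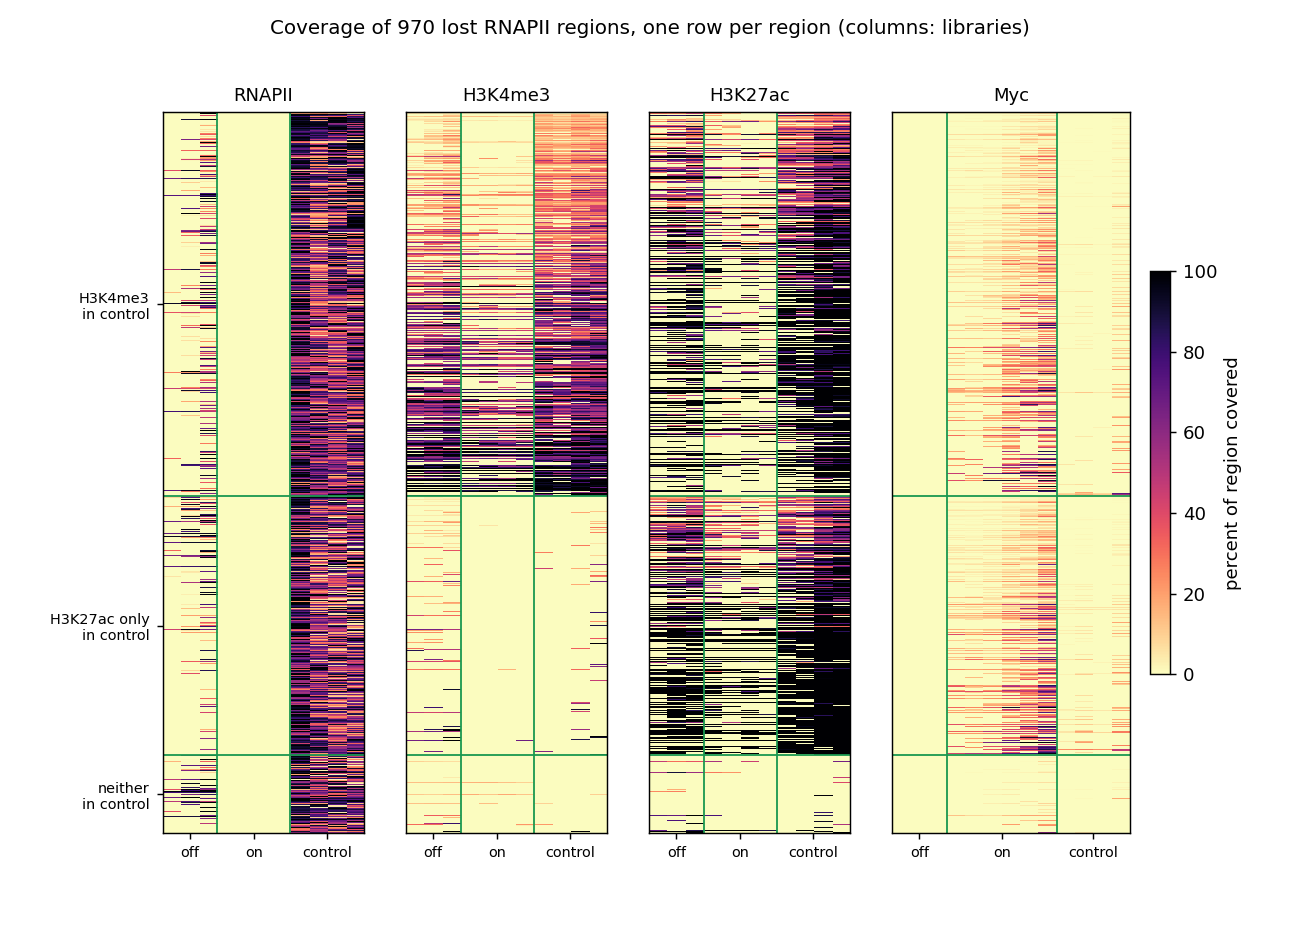
Coverage of each of the 970 lost regions (rows) in each library (columns), from 0% (pale) to 100% (black), with tumours with Myc off ("off") left of tumours with Myc on ("on") and control livers. Rows are grouped by control-liver marks (516, 349 and 105 regions) and run from long to short within a class. RNAPII is empty in tumours with Myc on by the rule, H3K4me3 and H3K27ac are thinner there than in control livers, and Myc is empty in the switched-off tumours.

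H3K27ac was lower at the lost regions in tumours with Myc on than in control livers. A peak was present at 346, 258, 291 and 236 of the 970 lost regions in the tumours, against 612, 643, 804 and 796 in the control livers. Mean coverage was 21.9% ± 3.9 in tumours (SD, n = 4) and 62.1% ± 11.5 in control livers (SD, n = 4). No tumour reached the lowest control liver on either measure. H3K27ac lists as a whole covered between 103.6 and 141.0 Mb in tumours with Myc on and between 72.9 and 153.1 Mb in control livers. By limma with Benjamini-Hochberg adjustment over all 16729 regions tested, 350 of the 970 lost regions (36.1%) fell and 2 rose at an adjusted p below 0.05. Over all regions tested, 8.79% fell and 11.1% rose. Of the 970, 817 were tested, since regions with H3K27ac in fewer than 2 libraries were left out, and the 350 are 42.8% of those tested. The median difference was -38.49 percentage points over the 970 lost regions, 3.93 over the kept regions and 0 over all 21522 regions. With wild-type control livers alone, 416 lost regions fell and 1 rose. When only peaks with at least the median score of all H3K27ac peaks were used, 15 fell and 0 rose. The shares of all regions called in these alternatives are not given here, so their counts are not set against all regions.

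H3K27ac fell by the full -100 percentage points, with 0% in every tumour with Myc on and 100% in every control liver, at 87 lost regions. How many of all regions tested fell this far was not counted, so the 87 are a description only. Of these 87, 31 had no H3K27ac in any switched-off tumour, 43 had it in 1 or 2 of them and 13 in all 3. The tied regions with the smallest p had none in any switched-off tumour, and the longest of them, chr3:81785726-81796162, had a limma adjusted p of 6.02e-12 (SE 1.16). In control livers H3K27ac covered this whole region while RNAPII covered 81.5%, 41.9%, 64.3% and 29.2% of it. No Myc peak was called there in any library. At chr16:43330429-43338062, H3K27ac behaved the same way and H3K4me3 was not called in any library, with RNAPII in control livers at 80.1%, 22.8%, 5.17% and 35.8%. At chr2:67808299-67812890, H3K4me3 was lost together with H3K27ac, with 0% in every tumour with Myc on and 100%, 44.5%, 89.5% and 74.8% in control livers. Its H3K4me3 difference was -77.2 points (SE 9.82, limma adjusted p = 0.000647). Where every library of a group is at 0% or 100% there is no spread within groups, so the errors of such regions come from the spread that limma shares across regions.

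The 2 regions at which H3K27ac rose lost H3K4me3. At chr15:99729469-99746926, H3K27ac covered 97.7%, 93.9%, 100% and 85.6% in tumours with Myc on and 48.9%, 54.7%, 46.8% and 93.8% in control livers (difference 33.2 points, SE 9.56, limma adjusted p = 0.0395). H3K4me3 covered 0% there in each tumour with Myc on and between 13.0% and 15.5% in control livers (difference -14.6, SE 2.40, limma adjusted p = 0.00328). Control liver 4 lay inside the range of the tumours for H3K27ac. At chr6:99115581-99127495, H3K27ac covered between 96.4% and 100% in tumours with Myc on and 52.7%, 55.2%, 79.1% and 94.0% in control livers (difference 28.2 points, SE 8.27, limma adjusted p = 0.0428). H3K4me3 covered 0% in each of those tumours and between 17.8% and 33.2% in control livers (difference -25.4, SE 3.74, limma adjusted p = 0.00165). After shutdown it covered 33.0%, 38.2% and 28.3% of this region, and RNAPII covered 0%, 100% and 42.5%.

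H3K4me3 was lower as well, and more evenly among tumours. A peak was present at 171, 188, 174 and 182 of the 970 lost regions in tumours with Myc on, against 457, 404, 510 and 536 in control livers. Mean coverage was 9.84% ± 0.61 in tumours with Myc on (SD, n = 4) and 26% ± 4.4 in control livers (SD, n = 4). The groups did not overlap. H3K4me3 lists as a whole covered between 38.5 and 46.3 Mb in tumours with Myc on and between 35.4 and 49.3 Mb in control livers. By limma with adjustment over all 13448 regions tested, 262 of the 970 lost regions (27%) fell and 2 rose, while 7.64% of all regions tested fell and 7.87% rose. Of the 970, 575 were tested, and the 262 are 45.6% of those. The median difference was -4.60 points over the lost regions, 0.905 over the kept regions and 0 over all regions. When only peaks with at least the median score of all H3K4me3 peaks were used, none was called. Between 2.63% and 13.5% of the H3K4me3 peaks at lost regions scored above the median of their own list. Of the 509 lost regions with an H3K4me3 peak in at least 2 control livers, 168, 182, 170 and 174 had one in the tumours with Myc on, between 33.0% and 35.8%. Of the 7699 kept regions with H3K4me3 in at least 2 control livers, between 98.8% and 99.1% had one.

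At some regions H3K4me3 was lost altogether. At chr9:66649335-66651335, H3K4me3 covered 0% in each tumour with Myc on and 100%, 98.3%, 100% and 100% in control livers (difference -99.6 points, SE 14.9, limma adjusted p = 0.00188). H3K27ac there covered 0% in each tumour with Myc on and 100% in each control liver (difference -100 points, SE 19.6, limma adjusted p = 0.0071). At chr1:39648202-39651660, H3K4me3 covered 0% in each tumour with Myc on and at least 97.6% in each control liver (difference -99.4 points, SE 1.76, limma adjusted p = 3.2e-10). H3K27ac remained there at 100%, 100%, 0% and 100% in tumours with Myc on, against 100% in each control liver. Myc covered 0%, 0%, 0%, 40.8%, 59.5% and 73.7% in the 6 tumours with Myc on and 0% in each control liver. At chr5:105772918-105776023, H3K4me3 covered 0% in each tumour with Myc on and between 91.3% and 100% in control livers (difference -97.2 points, SE 3.60, limma adjusted p = 9.85e-08). The rise at chr10:19570376-19583280, a region with neither mark by the class rule, was to 17.4%, 12%, 18.3% and 12.2% in tumours with Myc on, against 0%, 0%, 0% and 10.1% in control livers (difference 12.5 points, SE 2.58, limma adjusted p = 0.0107).

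Lost regions did not all lose their marks. Neither mark was called in any tumour with Myc on at 422 of the 970, among them 329 of the 865 that were marked in control liver. H3K4me3 was called in all 4 tumours with Myc on at 149 lost regions and in none of them at 754. Of those 149, 83 had no H3K27ac peak in any tumour with Myc on, 49 had it in 1 to 3 of them and 17 in all 4. Their median length was 3490 bp, and 72 of them had RNAPII in at least 1 switched-off tumour. H3K27ac was called in all 4 tumours with Myc on at 146 lost regions and in none of them at 541. Of those 146, 116 had no H3K4me3 in any tumour with Myc on. At chr8:37520409-37521779, an example of a kept promoter mark, H3K4me3 covered 100% in every library of every group while RNAPII covered 0% in each switched-off tumour and each tumour with Myc on, and 94.0%, 97.7%, 74.5% and 59.8% in control livers.

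**Figure D3:**
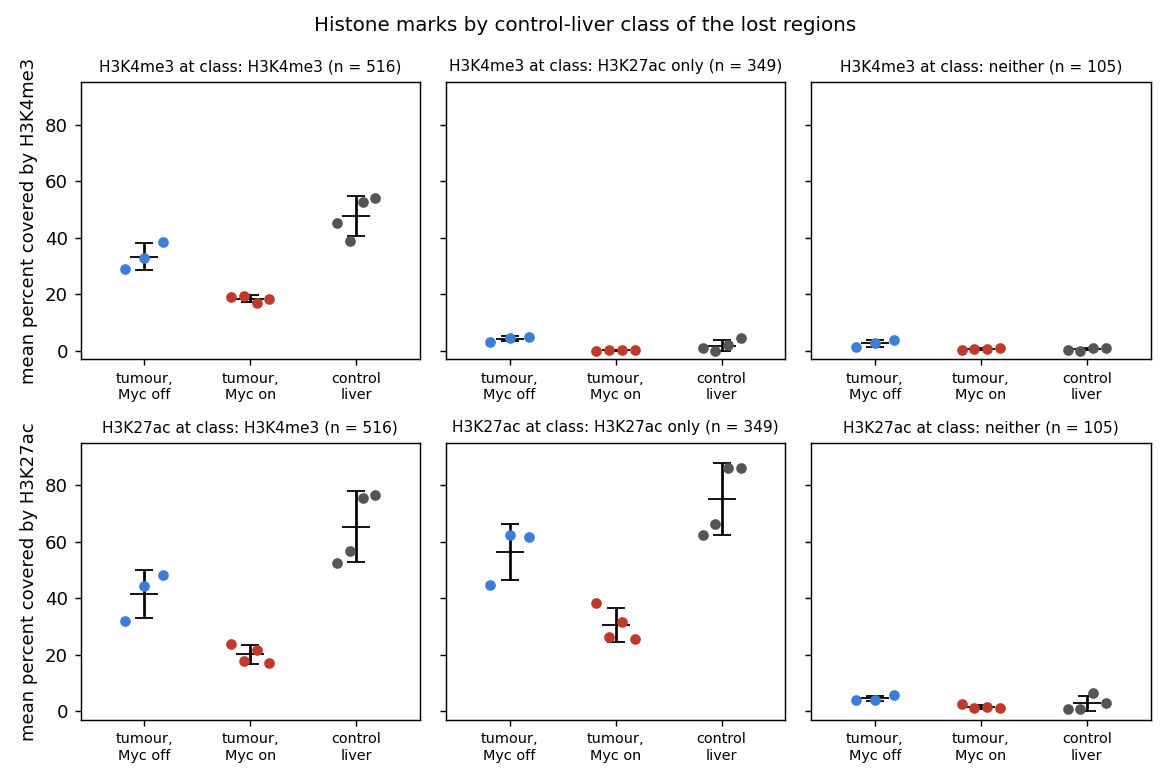
Mean percent of a lost region covered by H3K4me3 (top) and H3K27ac (bottom) for the 3 control-liver classes, with 1 point per library and bars for the mean and SD. Tumours with Myc off stand left of tumours with Myc on and control livers. H3K27ac in the class without H3K4me3 lies between 25.7% and 38.5% in tumours with Myc on and between 62.3% and 86.3% in control livers.

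The classes were defined by control-liver peaks, so the values of control livers within a class are fixed in part by the choice. In the class with H3K4me3, H3K27ac was present at 164, 134, 150 and 120 of 516 regions in tumours with Myc on and at 351, 372, 459 and 456 in control livers. In the class with H3K27ac only, it was present at 177, 122, 139 and 114 of 349 regions in tumours with Myc on and at 260, 270, 337 and 335 in control livers. H3K27ac fell at 223 of the 516 and at 127 of the 349 regions by the same limma fit, and at 0 of the 105 regions with neither mark, 9 of which were tested. H3K4me3 fell at 262 of the 516 regions, and both of its rises were in the class with neither mark. Among the 7898 kept regions, H3K27ac fell at 303 and H3K4me3 at 387, and these were not split by class. Shares of all regions by class are not given, so the class counts are a description only. Groups did not overlap in either marked class for H3K27ac.

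The authors' scores place the peaks at lost regions within their own list. The median H3K27ac peak at lost regions ranked at percentiles 44.9 to 46.4 of its list in switched-off tumours, 21.2 to 24.3 in tumours with Myc on and 46.2 to 53.0 in control livers. H3K27ac peaks at kept regions ranked at percentiles 59.7 to 68.9 in switched-off tumours, 62.2 to 65.1 in tumours with Myc on and 57.0 to 64.7 in control livers. H3K4me3 peaks at lost regions ranked low in every list, at percentiles 26.2 to 28.0 in switched-off tumours, 20.6 to 24.1 in tumours with Myc on and 24.3 to 29.2 in control livers. At kept regions the H3K4me3 percentiles were 71.2 to 73.2 in switched-off tumours and 65.3 to 65.9 in tumours with Myc on. In control livers they were 62.3 to 67.9. Lists differ in length, so these percentiles show where a peak stands in its own list and no change between groups.

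**Figure D4:**
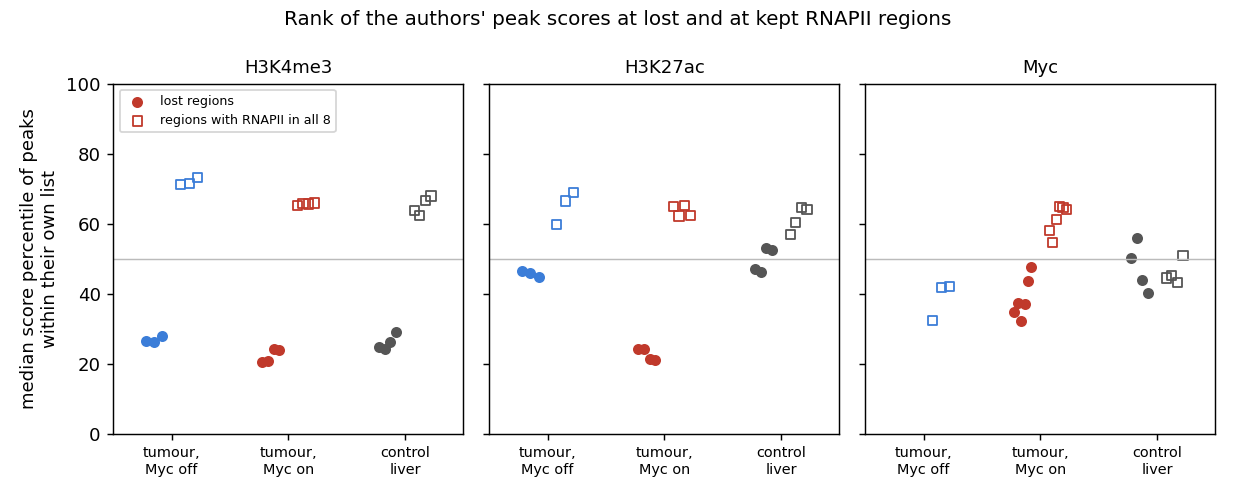
Median percentile, within its own list, of the authors' score of peaks at lost regions (filled circles) and at regions with RNAPII in all 4 tumours with Myc on and all 4 control livers (open squares), 1 symbol per library. Blue is tumours with Myc off, red tumours with Myc on and grey control livers, and the line marks percentile 50. No Myc symbol stands for lost regions in the switched-off tumours, where no Myc peak was called at them.

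Myc bound part of the lost regions in tumours with Myc on. A Myc peak was present at 0 of the 970 lost regions in each of the 3 switched-off tumours, at 184, 234, 284, 498, 523 and 631 in tumours with Myc on, and at 74, 117, 29 and 200 in control livers. Tumour 1 lay below control liver 4. Among tumours with Myc on the number followed the length of the list, with 19269 peaks in tumour 1 and 55763 in tumour 6, and the part of list length was not tested. Regions with a peak in 2 or more of these 6 tumours are called Myc-bound. They were 568 of the lost regions (58.6%) and 98.5% of the kept regions, a difference that was not tested. A peak in all 6 was present at 134 lost regions (13.8%) and at 81.6% of kept regions, and 272 lost regions had none in any of the 6. Myc-bound regions were 313 of the 516 with H3K4me3, 240 of the 349 with H3K27ac only and 15 of the 105 with neither mark.

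By limma, Myc coverage rose at 194 of the 970 lost regions (20.0%) in tumours with Myc on against control livers and fell at 9. Of all 15415 regions tested, 73.8% rose and 0.331% fell. Of the 970, 618 were tested, and the 194 are 31.4% of those. The median difference was 2.91 points over the lost regions, 13.7 over kept regions and 9.11 over all regions. With the mean coverage of a library as a covariate, 6 lost regions rose and 90 fell. For Myc, mean coverage over all regions was 14.9% in tumours with Myc on and 0.728% in control livers. The covariate thus nearly follows the groups, and these counts cannot be read as an adjusted result. With wild-type control livers alone 11 rose and 2 fell. Without control liver 1 there were 134 calls, without control liver 2 132, and without tumour 1 316, against 203 with every library.

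The largest rise was at chr1:89945253-89946044, where Myc covered 42.7%, 51.0%, 47.1%, 76.1%, 79.8% and 96.3% in tumours with Myc on and 0% in each switched-off tumour and each control liver (difference against control livers 65.5 points, SE 9.40, limma adjusted p = 0.000356). At chr8:37520409-37521779, Myc covered between 23.9% and 93.4% in 5 tumours with Myc on, 0% in tumour 5 and 0% in control livers (difference 56.5 points, SE 16.9, limma adjusted p = 0.0111). At chr5:138516698-138517882, Myc covered 0%, 21.3%, 63.7%, 74.7%, 100% and 97.4% in tumours with Myc on, and 20.0% in control liver 2 and 0% in the other control livers (difference 54.5 points, SE 17.0, limma adjusted p = 0.0136). H3K27ac at this region covered 100% in each switched-off tumour, 0% in each tumour with Myc on and 100% in each control liver. That is a fall of -100 points with Myc on (SE 1.91, limma adjusted p = 1.09e-10) and a difference of 100 points between switched-off tumours and tumours with Myc on (SE 2.06, limma adjusted p = 7.62e-10). Both comparisons share the tumours with Myc on.

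A few lost regions had no Myc in tumours but had it in control livers. Of the 970, 7 had a Myc peak in no tumour with Myc on and in at least 3 control livers. So did 25 of all other regions among the 21522, so the counts 7 and 25 come from sets of very unlike size. At chr11:7750726-7751444, Myc covered 0% in each of the 6 tumours and 8.35%, 13.1%, 8.07% and 72.2% in control livers (difference -25.4 points, SE 9.93, limma adjusted p = 0.0344). H3K4me3 covered 0% of it in each tumour with Myc on and each switched-off tumour and 100% in each control liver (difference with Myc on -100 points, SE 1.23, limma adjusted p = 7.78e-11). At chr12:48986796-48987313, Myc covered 0% in each tumour and 11.4%, 17.0%, 11.6% and 55.8% in control livers (difference -23.9 points, SE 6.96, limma adjusted p = 0.00992). H3K27ac was not called in any library at these 2 regions. In control liver 4, the longest of the control Myc lists, Myc covered most of each.

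H3K27ac differed between Myc-bound regions and the rest, as a description. Among the 568 Myc-bound lost regions it was present at 330, 448 and 449 in switched-off tumours, 313, 235, 260 and 214 in tumours with Myc on, and 416, 438, 526 and 523 in control livers. Among the other 402 it was present at 73, 97 and 132 in switched-off tumours, 33, 23, 31 and 22 in tumours with Myc on, and 196, 205, 278 and 273 in control livers. In tumours with Myc on these were between 37.7% and 55.1% of the Myc-bound regions and between 5.47% and 8.21% of the others, and in control livers between 73.2% and 92.6% and between 48.8% and 69.2%. H3K4me3 in tumours with Myc on was present at 115, 129, 118 and 126 Myc-bound regions and at 56, 59, 56 and 56 of the others.

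**Figure D5:**
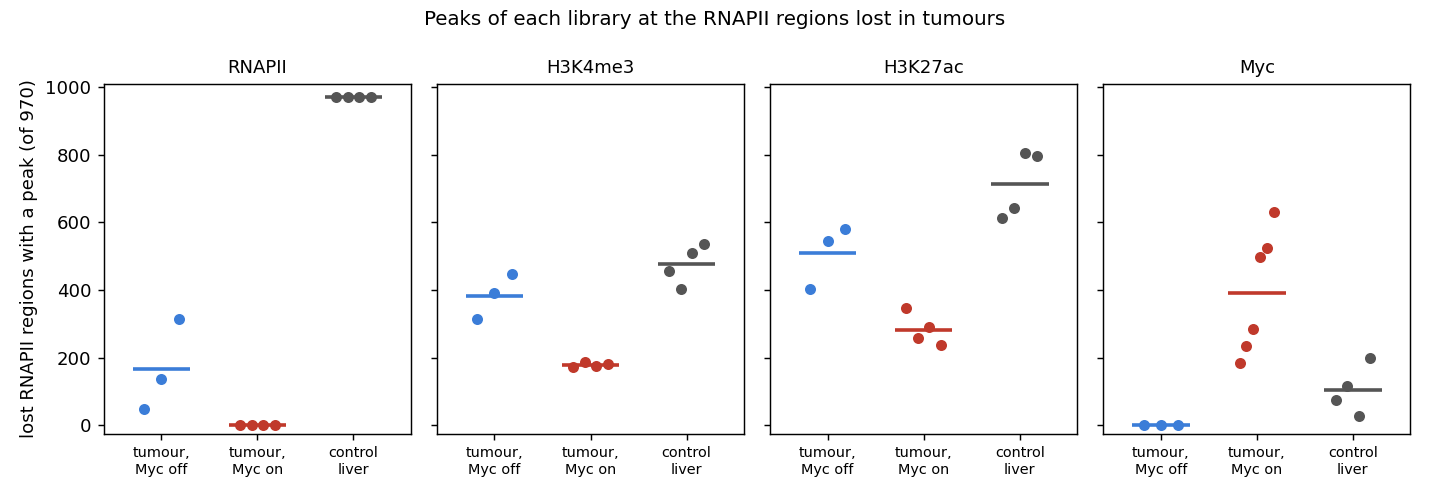
Number of the 970 lost regions with a peak of RNAPII, H3K4me3, H3K27ac and Myc in each library. Each point is 1 library and each line the mean of a group, with tumours with Myc off for 16 h left of tumours with Myc on and control livers. RNAPII stands at 0 in tumours with Myc on and at 970 in control livers by the rule, and Myc stands at 0 in the 3 switched-off tumours.

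The switched-off tumours show the lost regions after tet-Myc had been silenced for 16 h. RNAPII was called at 49, 138 and 314 of the 970 lost regions in switched-off tumours 1, 2 and 3. It covered at least 50% of the region at 18, 70 and 161 of them. The 3 libraries differed widely, in the order in which their RNAPII lists covered 69.9, 102 and 146.5 Mb, and the part of list size in this order was not tested. At kept regions the same lists had RNAPII at between 7217 and 7807 of 7898. RNAPII was called in none of the 3 at 626 lost regions, in 1 at 226, in 2 at 79 and in all 3 at 39. Because the rule put every tumour with Myc on at 0, lost regions could only be equal or higher after shutdown. By limma 22 of them were called higher and 0 lower, beside 2.43% of all 16931 regions tested that were higher and 1.09% that were lower. In tumours with Myc on against control livers 706 lost regions (72.8%) were called lower and 0 higher. Of all regions tested, 9.1% were lower and 3.89% higher in that comparison. In switched-off tumours against control livers 479 lost regions (49.4%) were called lower and 2 (0.206%) higher. There, 5.05% of all regions tested were lower and 3.33% higher. The rule used these values, and nothing is read from these counts. The 22 became 46 without switched-off tumour 1 and 14 without switched-off tumour 2.

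Peaks of switched-off tumours helped set the edges of regions, so their high coverage at the regions below is in part fixed by the merging. RNAPII coverage after shutdown was highest at chr7:3122347-3136057. There RNAPII covered 97.6%, 99.6% and 100% in switched-off tumours, 0% in each tumour with Myc on and 45.8%, 55.9%, 65.1% and 59.99% in control livers. This region had no H3K4me3 or Myc in any library, and H3K27ac in switched-off tumours 1 and 2 only, at 24.9% and 26.6%. At chr11:5906168-5910926, RNAPII covered 93.7%, 100% and 96.0% in switched-off tumours, 0% in each tumour with Myc on and 95.1%, 23.4%, 94.9% and 99.6% in control livers. H3K4me3 covered at least 82.2% of it in every library of the 3 groups. H3K27ac covered 96.2%, 96.4% and 94.2% in switched-off tumours, 0% in each tumour with Myc on, and 0%, 0%, 94.8% and 0% in control livers (switched-off against Myc on 95.6 points, SE 21.3, limma adjusted p = 0.0383). At chr19:8592812-8593813, RNAPII covered 74.1%, 94.6% and 94.1% in switched-off tumours, 0% in each tumour with Myc on and between 90.8% and 95.8% in control livers. H3K4me3 there was between 87.0% and 100% in every library. H3K27ac there covered 96.4%, 100% and 100% in switched-off tumours, 73.5%, 0%, 0% and 0% in tumours with Myc on, and 0%, 73.7%, 100% and 99.8% in control livers (switched-off against Myc on 80.4 points, SE 26.9, limma adjusted p = 0.135).

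H3K4me3 was called at 313, 391 and 446 of the 970 lost regions in switched-off tumours, against 171 to 188 in tumours with Myc on. Mean coverage was 19.5% ± 3.0 in switched-off tumours (SD, n = 3) and 9.84% ± 0.61 in tumours with Myc on (SD, n = 4), and the groups did not overlap. By limma, 115 of the 970 (11.9%) were higher in switched-off tumours and 0 lower, while 21.6% of all regions tested were higher and 0.32% lower. The 115 are 20.0% of the 575 lost regions tested, a share near that of all regions. The mean difference was 9.67 points over the lost regions, 7.17 over kept regions and 8.37 over all regions, and the median difference was 0 over the lost regions, 5.19 over kept regions and 1.74 over all regions. H3K4me3 lists covered between 58.0 and 65.5 Mb in switched-off tumours and between 38.5 and 46.3 Mb in tumours with Myc on. With mean coverage as a covariate 23 of the 970 were higher. Against control livers, 170 of the 970 lost regions (29.6% of those tested) were lower and 47 higher (8.17%), where 3.31% of all regions tested were lower and 35.6% higher. With the covariate, 102 were lower and 9 higher. Mean H3K4me3 coverage over all regions was 30.7% in switched-off tumours, 22.4% in tumours with Myc on and 22.3% in control livers. The covariate thus partly follows the groups, and its counts cannot be read as an adjusted result. With peaks of at least the median score, 3 were lower and 38 higher.

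At chr1:39648202-39651660, H3K4me3 covered 95.4%, 97.7% and 98.3% in switched-off tumours and 0% in each tumour with Myc on, a difference of 97.2 points (SE 1.90, limma adjusted p = 1.53e-10). At chr5:105772918-105776023, it covered 92.2%, 76.3% and 81.0% in switched-off tumours and 0% in each tumour with Myc on, a difference of 83.2 points (SE 3.88, limma adjusted p = 1.95e-07). RNAPII covered 27.3%, 22.2% and 49.3% of it in switched-off tumours, 0% in each tumour with Myc on and between 40.6% and 93.1% in control livers. At chr9:66649335-66651335, by contrast, H3K4me3 covered 0%, 0% and 77.7% in switched-off tumours, and the difference from tumours with Myc on was 25.9 points (SE 16.1, limma adjusted p = 0.275).

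H3K27ac was called at 403, 545 and 581 of the 970 lost regions in switched-off tumours, against 236 to 346 in tumours with Myc on. Mean coverage was 42.9% ± 8.1 in switched-off tumours (SD, n = 3) and 21.9% ± 3.9 in tumours with Myc on (SD, n = 4), and no switched-off tumour was as low as the highest tumour with Myc on. By limma, 65 of the 970 (6.70%) were higher in switched-off tumours and 0 lower, while 4.58% of all regions tested were higher and 0.317% lower. The 65 are 7.96% of the 817 lost regions tested. The mean difference was 21.0 points over the lost regions, 6.98 over kept regions and 10.8 over all regions, and the median difference was 8.47 over the lost regions, 4.95 over kept regions and 1.68 over all regions. H3K27ac lists covered between 168.3 and 213.9 Mb in switched-off tumours and between 103.6 and 141.0 Mb in tumours with Myc on. With mean coverage as a covariate 35 of the 970 were higher. Mean H3K27ac coverage over all regions was 50.3% in switched-off tumours and 39.4% in tumours with Myc on. The covariate thus partly follows the groups, and the 35 cannot be read as an adjusted result. On merged H3K27ac regions in place of RNAPII regions 151 were higher. Against control livers, 165 of the 970 (20.2% of those tested) were lower and 13 higher (1.59%), where 3.31% of all regions tested were lower and 15.4% higher. On merged H3K27ac regions 212 were lower and 86 higher, and with peaks of at least the median score 23 were lower and 42 higher.

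Myc coverage fell at 186 of the 970 lost regions in switched-off tumours against tumours with Myc on and rose at 0, while 70.9% of all regions tested fell and 0.0195% rose. The 186 are 30.1% of the 618 lost regions tested. The Myc lists of the 3 switched-off tumours held no peak at any lost region, so coverage there could only be equal or lower. Lost regions were therefore tested only where tumours with Myc on or control livers had Myc in at least 2 libraries. Leaving out any of the 3 left 81 falls. With the covariate 5 fell and 69 rose, but for Myc the covariate nearly follows the groups and nothing is read from these counts. Against control livers no lost region was called, and 0.00649% of all regions tested fell and 0% rose.

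The marks can be set beside RNAPII after shutdown, as a description. Of the 39 lost regions with RNAPII in all 3 switched-off tumours, H3K4me3 was present at 20, 22 and 21 in switched-off tumours, 7, 7, 6 and 7 in tumours with Myc on, and 13, 11, 13 and 16 in control livers. H3K27ac was present at 24, 26 and 25 of them in switched-off tumours, 22, 12, 17 and 11 in tumours with Myc on, and 15, 19, 25 and 24 in control livers. Of the 626 with RNAPII in no switched-off tumour, H3K4me3 was present at 145, 187 and 217 in switched-off tumours, 85, 92, 91 and 97 in tumours with Myc on, and 262, 224, 304 and 324 in control livers. H3K27ac was present at 205, 304 and 312 of those 626 in switched-off tumours, 181, 135, 163 and 131 in tumours with Myc on, and 393, 419, 524 and 513 in control livers. By control-liver class, RNAPII in switched-off tumours 1, 2 and 3 was present at 19, 61 and 195 of the 516 regions with H3K4me3, at 16, 50 and 83 of the 349 with H3K27ac only, and at 14, 27 and 36 of the 105 with neither mark.

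The longest lost regions differed in how evenly RNAPII covered them in control livers. At chr16:43525467-43649355, the longest, RNAPII covered 0%, 0% and 20.2% in switched-off tumours, 0% in each tumour with Myc on, and 95.3%, 20.4%, 68.4% and 5.37% in control livers. H3K27ac there covered 18.5%, 27.5% and 31.3% in switched-off tumours, 0% in each tumour with Myc on and 0%, 4.55%, 0% and 23.2% in control livers. The difference between switched-off tumours and tumours with Myc on was 25.8 points (SE 5.58, limma adjusted p = 0.0365). The next in length were as uneven. At chr9:48467721-48570152, RNAPII covered 0%, 34.6% and 0% in switched-off tumours, 0% in each tumour with Myc on, and 17.9%, 98.0%, 0.351% and 49.2% in control livers. At chr9:69140717-69233708, RNAPII covered 0%, 0% and 77.9% in switched-off tumours, 0% in each tumour with Myc on, and 98.8%, 12.03%, 63.0% and 16.3% in control livers. The fourth and the seventh in length were covered nearly whole in every control liver. At chr15:3344731-3428214, RNAPII covered 8.28%, 73.5% and 8.23% in switched-off tumours, 0% in each tumour with Myc on, and 99.1%, 97.0%, 93.6% and 95.3% in control livers. H3K27ac fell there, with 8.39%, 8.10%, 4.47% and 0% in tumours with Myc on and 54.3%, 40.6%, 57.9% and 59.2% in control livers (difference -47.7 points, SE 5.10, limma adjusted p = 0.000142). At chr6:141577302-141645563, RNAPII covered 0%, 0% and 5.66% in switched-off tumours, 0% in each tumour with Myc on and between 95.3% and 97.5% in control livers. H3K4me3 covered 0% there in each tumour with Myc on and 18.3%, 18.8%, 14.5% and 17.8% in control livers (difference -17.4 points, SE 1.90, limma adjusted p = 0.000243).

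At 74 lost regions neither H3K4me3 nor H3K27ac was called in any library. Their median length was 14560 bp, and 5 of them were Myc-bound. RNAPII was called in a switched-off tumour at 27 of the 74, and at 344 of all 970 lost regions. At chr2:43486145-43555131, RNAPII covered 41.6%, 95.4% and 97.5% in switched-off tumours, 0% in each tumour with Myc on, and 90.7%, 89.0%, 15.8% and 39.3% in control livers. At chr6:121981536-122041870, RNAPII covered 0% in each switched-off tumour and each tumour with Myc on, and 97.0%, 24.1%, 84.9% and 44.7% in control livers, with no Myc in any library.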

How the data were processed

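Peak lists of 46 of 47 samples were used, and the input sample was not analysed here. The submitters' processing notes name BWA 0.6.2, SAMtools and the mm9 build. For the peak caller, its threshold and its control, nothing is stated in the labels. The deposited RNAPII lists hold positions only, and the deposited Myc, H3K4me3 and H3K27ac lists also hold a score per peak from the authors, used only to rank or filter peaks. No file gives read counts.

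RNAPII peaks were merged (1 bp overlap), and coverage in percent per region and library was fitted with limma 3.58.1 (trend) in R 4.3.3, 3 groups per antibody in 1 fit, over regions covered in at least 2 libraries. The threshold was a Benjamini-Hochberg adjusted p of 0.05. The step was tested on simulated data. Merging used Python 3.11.15, numpy 2.4.6 and pandas 2.3.3, and plots matplotlib 3.10.9. Groups came from the labels. Errors are SD or limma SE. Positions count from 1.

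Named regions were the 8 longest, the 6 largest falls of each mark (ties to the smaller p, then the longer region), up to 3 largest rises (2 were called for each mark), 6 Myc rises and 3 Myc falls, the 6 with most RNAPII after shutdown, the 5 longest unmarked and those nearest the rule. Regions nearest the rule were taken by the largest control coverage. Those printed were picked from the named regions after their values were seen. Regions and tests were chosen with earlier results of these data known. The alternatives were other merging, filters, scores, list lengths, presence, covariate, replicate block, wild-type control livers and single libraries left out.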

Additional observations from a re-analysis of the deposited data

Results flagged for a closer look

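A library stood apart from its group by Dixon's test in 35 of 304 groups of 4 or 6 libraries. The 304 include groups without any spread, which cannot be flagged, so this share is not set against a chance rate. Many of these are regions at which 1 library alone has, or lacks, a called peak, which gives the test its largest value or nearly so. None of these was followed up with a test.

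Over classes of lost regions, control liver 4 stood high for Myc in the H3K4me3 class (mean coverage 2.17%), and tumour 6 with Myc on for Myc in the class with neither mark (2.37%). Tumour 1 stood high for H3K27ac in the class with neither mark (5 regions, mean coverage 2.68%), and tumour 2 for H3K4me3 at regions that were not Myc-bound (59 regions). At the locus on chromosome 3, tumour 2 alone had H3K4me3 (1.20 kb).

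For H3K27ac, control liver 4 stood apart at chr15:99729469-99746926 (93.8%) and chr7:27620110-27629708 (100%), control liver 3 at chr11:5906168-5910926 (94.8%) and chr2:58605085-58650371 (52.7%), and control liver 2 at chr5:105772918-105776023 (97.1%). Control liver 1 alone had 0% at chr1:89945253-89946044 and chr8:37520409-37521779. Tumour 3 stood apart at chr1:39648202-39651660 (0%) and chr8:37520409-37521779 (95.8%), and tumour 1 at chr19:8592812-8593813 (73.5%). For H3K4me3, control liver 2 stood lowest at chr9:66649335-66651335 (98.3%) and chr1:39648202-39651660 (97.6%), and control liver 4 highest at chr10:19570376-19583280 (10.1%).

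For RNAPII, control liver 1 stood apart at chr6:99115581-99127495 (32.2%), control liver 2 at chr11:5906168-5910926 (23.4%), control liver 3 at chr7:27620110-27629708 (95.9%), control liver 4 at chr6:142393814-142413753 (0%) and tumour 2 at chr2:58605085-58650371 (2.73%).

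For Myc, tumour 6 stood high at chr15:99729469-99746926 (33.3%), chr11:5906168-5910926 (10.2%), chr2:43486145-43555131 (1.23%) and chr7:27620110-27629708 (3.22%). Control liver 4 stood high at chr11:7750726-7751444 (72.2%), chr12:48986796-48987313 (55.8%) and chr11:5906168-5910926 (11.0%). Control liver 2 stood high at chr16:43525467-43649355 (0.212%), chr5:138516698-138517882 (20.0%), chr7:27620110-27629708 (0.74%) and chr6:142393814-142413753 (0.431%).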

How the results depend on the processing

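Of 231 recomputed values, 190 stayed within 1.5 times of the reported value and kept their direction, 36 moved further and 5 turned the split of calls; where not said otherwise, the cause was not tested. Peak lists give no depth, so a missing peak cannot be told from a shallow library. For the alternatives, here and above, the shares of all regions called are not given. Their counts therefore show how many lost regions were called and do not compare lost regions with others. The number of lost regions was 961 with peaks up to 500 bp apart merged, 981 when presence needed 10% of a region, 1192 with wild-type control livers alone and between 981 and 1303 with single libraries left out.

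With scores of at least the median, calls were 0 for H3K4me3 and 15 for H3K27ac in tumours with Myc on against control livers, and 37 for H3K4me3 after shutdown against Myc on. After shutdown against control livers the split turned to higher, at 41 calls for H3K4me3 and 65 for H3K27ac. Myc gave 74 calls with Myc on against control livers and 35 after shutdown. On lists of equal length, cut to the shortest list (98 peaks for Myc), calls were 18 for H3K4me3 after shutdown against Myc on, and for Myc 1 (turned), 0 and 1 in the contrasts Myc on against control, shutdown against Myc on and shutdown against control.

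With mean coverage as a covariate, calls after shutdown against Myc on were 23 for H3K4me3 and 35 for H3K27ac. After shutdown against control, H3K4me3 gave 111. Myc gave 96 with Myc on against control and 74 after shutdown against Myc on, both turned. For Myc the covariate nearly follows the groups, so these turned splits are not read as an adjusted result. For both marks it partly follows the groups after shutdown, so those counts are not read as adjusted results either. With presence in place of coverage, calls were 39 for RNAPII and 37 for H3K27ac after shutdown against Myc on, 96 for H3K27ac and 7 for Myc after shutdown against control; for H3K4me3 this could not be fitted and was not run. On an antibody's own merged regions, calls were 151 and 298 for H3K27ac after shutdown against Myc on and against control, and 2 for Myc against control. With wild-type control livers alone, Myc gave 13 calls against control livers and 123 after shutdown against Myc on.

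With 50% coverage required, the H3K4me3 class held 334 and the class with neither mark 167 lost regions, and RNAPII after shutdown was present at 18, 70 and 161. With a mark region in all 4 control livers, 228 had neither mark.

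Leaving out single libraries gave, with Myc on against control, 262 to 326 calls for H3K27ac, 232 to 282 for H3K4me3 and 132 to 316 for Myc. After shutdown against Myc on it gave 47 to 96 for H3K27ac, 80 to 154 for H3K4me3, 81 to 277 for Myc and 14 to 46 for RNAPII. After shutdown against control livers it gave 128 to 170 for H3K27ac, 160 to 207 for H3K4me3 and 0 to 2 for Myc, whose 2 calls came without control liver 4.

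Replicate numbers were not taken as pairing the samples, since the labels state no shared animal and 1 of 40 same-numbered pairs had deviations from group means that correlated above 0.1 (range -0.0648 to 0.152). Of the 40, 31 were above 0. A library correlated best with its own number in 39 of 80 comparisons, where equal odds would give 22. Each pair of libraries enters from both sides, so the 80 are not independent. What a shared number stands for was not tested. With the replicate number as a block, H3K27ac calls after shutdown against Myc on were 41 in place of 65, and no other count moved by over 1.5 times: H3K27ac 276 and 128, H3K4me3 243, 89 and 164, Myc 208, 166 and 0, RNAPII 31.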

Other observations

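Numbers of regions with a peak can be given by length. Among the 243 shortest lost regions, H3K4me3 was present at 97, 114 and 119 in switched-off tumours, 67, 71, 69 and 74 in tumours with Myc on, and 124, 111, 139 and 141 in control livers. H3K27ac was present at 89, 121 and 128 of them in switched-off tumours, 73, 50, 62 and 51 in tumours with Myc on, and 130, 151, 195 and 194 in control livers. Among the 243 longest, H3K4me3 was present at 56, 89 and 120 in switched-off tumours, 18, 23, 20 and 25 in tumours with Myc on, and 114, 102, 121 and 127 in control livers. H3K27ac was present at 114, 143 and 161 of these longest regions in switched-off tumours, 88, 68, 69 and 53 in tumours with Myc on, and 159, 154, 187 and 193 in control livers.

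The locus chr12:104964184-105104141 with 5 lost regions had RNAPII after shutdown at 4, 2 and 4 of them, and H3K4me3 at 4 in each switched-off tumour, at 1 in each tumour with Myc on and at 2, 1, 4 and 4 in control livers. The locus chr13:4386687-4523071, also with 5, had RNAPII after shutdown at 0, 0 and 2, and H3K4me3 at 0, 1 and 2 in switched-off tumours, at 0 in each tumour with Myc on and at 3, 2, 3 and 3 in control livers.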
